A study of Mus musculus with 4 samples.

Results

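Scx, Mkx and Tnmd, the genes of scleraxis, Mohawk and tenomodulin, were followed across the injured mouse Achilles tendon. They were taken by symbol from the gene list of the deposited matrices, as 3 of 32285 genes, and each symbol matched 1 gene identifier (ENSMUSG00000034161, ENSMUSG00000061013 and ENSMUSG00000031250). The rule that picks them uses symbols alone, but the genes were chosen with earlier results of these data known. Scleraxis is a basic helix-loop-helix transcription factor that marks tendon and ligament progenitors and drives tendon matrix genes. Mohawk is a homeobox factor of the TALE class that is needed for the growth and maturation of tendon collagen fibrils. Tenomodulin is a type II membrane glycoprotein of mature tenocytes, and its gene is a known downstream target of scleraxis.

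The data were Visium spatial transcriptomes, in which barcoded spots on a slide capture the RNA of the tissue lying over them, and each value is a count of unique molecular identifiers (UMIs). All mice were 12 weeks old, of both sexes by the labels, had a punch wound of 0.5 mm in the left Achilles tendon and were sampled on day 14. There were 2 sections of TrkA WT mice labelled control (WT 1 and WT 2) and 2 of TrkA F592A mice given 1NMPP1 (F592A 1 and F592A 2). TrkA, the receptor for nerve growth factor, is a kinase of pain-sensing and sympathetic neurons. F592A is an engineered form that 1NMPP1 can block. Genotype and drug changed together, the labels do not say whether WT mice received the drug, and the substitution is not limited to a cell type by anything the labels say. The design states that 4 mice were pooled per genotype but ties no section to an animal, so p-values measure only the spread between these sections.

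The sections held 30154873 to 43957617 UMIs on 2027 to 3047 tissue spots. A spot covers several cells, so spots were placed in classes by marker genes that do not include the 3 genes. Tendon spots were those led by Fmod, Comp, Chad, Thbs4, Kera, Cilp2, Cilp and Angptl7, which encode matrix proteins of mature tendon and fibrocartilage. Scar spots were led by myofibroblast and wound genes such as Postn, Cthrc1 and Acta2, sheath spots by genes of loose connective tissue and synovial lining such as Tppp3, Prg4 and Pi16, and muscle and skin spots by sarcomere and keratin genes. All 8 tendon markers had UMIs in the tendon spots of every section, summing to 7483 to 8246 UMIs scaled to a total of 1000000 (CPM). The same markers set this class, so these sums cannot show that tendon was present or that its content was matched. WT 2 stood apart in 2 ways. Its tendon spots were 34.4% of its spots, against 10.7% in WT 1, 7.20% in F592A 1 and 3.46% in F592A 2, and it held 4207 UMIs of the X-inactivation transcript Xist against 7 to 12 in the other sections, which carried the Y-linked transcripts that WT 2 lacked or nearly lacked. Tnmd lies on the X chromosome, and whether the sex of the tissue moved it was not tested.

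Scx lies on chromosome 15 (RefSeq GRCm38.p6, 76457411 to 76459468), inside the span annotated for Bop1, a ribosome biogenesis gene. Reads of the pair may be hard to tell apart, since strand handling in the counting is not given in the sources used here. Bop1 stood at 41.8, 34.1, 38.4 and 32.2 CPM in the tendon spots of WT 1, WT 2, F592A 1 and F592A 2 and at 36.8, 30.5, 37.7 and 32.6 CPM in their scar spots, so it did not share the size of the Scx differences between the groups in tendon spots. In other classes its direction was that of Scx: it stood at 37.0 and 33.0 CPM in WT and 38.9 and 40.2 CPM in F592A sheath spots, at 18.4 and 18.5 against 17.2 and 15.1 CPM in muscle spots and at 49.0 and 34.1 against 28.7 and 29.3 CPM in skin spots. Its part in the Scx values there was not tested. Tnmd lies on the X chromosome (133851008 to 133865577, plus strand). Of the 3 genes, the RefSeq promoter table held Tnmd. The 250 bases before its start (chrX:133850758-133851007, plus strand, GRCm38.p6) are shown because Tnmd and Scx levels ran together in these data and scleraxis binds E-boxes, with the TATATA motif in capitals.
Tnmd promoter: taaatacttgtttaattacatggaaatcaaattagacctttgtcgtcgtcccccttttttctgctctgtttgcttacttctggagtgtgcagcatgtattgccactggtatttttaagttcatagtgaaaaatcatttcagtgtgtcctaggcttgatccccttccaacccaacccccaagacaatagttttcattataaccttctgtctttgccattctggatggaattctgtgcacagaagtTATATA
The motif starts 6 bases before the annotated start, and 5.25% of the 32851 promoters of the same length held it on either strand. The E-box letters CANNTG, of which CAGATG and CAGGTG are forms, were not in this window on either strand. They were in 66.2% of all promoters, CAGATG in 14.4% and CAGGTG in 17.2%. The letters TATAAA (12.4% of promoters), CCAAT (33.8%) and CAGAC (42.2%), the last a SMAD-binding core, were not in the window either.

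Scx was highest in tendon spots and nearly as high in scar spots. In tendon spots it stood at 200 CPM in WT 1, 175 CPM in WT 2, 158 CPM in F592A 1 and 116.8 CPM in F592A 2, a mean of 163 ± 35.0 (SD, n = 4). In scar spots it stood at 179, 123, 133 and 128 CPM in the same order. Tendon was above scar in 3 of 4 sections, and the ranges of the 2 classes overlapped. Sheath spots followed with 74.5, 77.6, 79.6 and 90.6 CPM, a narrow range that lay below every scar value. Skin spots held 41.5, 46.5, 27.8 and 31.8 CPM and muscle spots 45.4, 52.3, 28.4 and 8.9 CPM. Skin and muscle overlapped, and their order was not the same in all sections. By their means of 52.5 and 53.9 CPM, adipose-led and nerve-led spots lay between sheath and skin. Nerve-led spots did not in every section, at 81.7 CPM in WT 1, above sheath, and 30.3 CPM in F592A 2, below skin.

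Mkx had a narrower pattern, high in tendon spots and low in scar spots. Tendon spots held 52.1 CPM in WT 1, 51.8 CPM in WT 2, 23.0 CPM in F592A 1 and 16.1 CPM in F592A 2, from 548, 706, 108 and 23 UMIs. Sheath spots held 17.02, 19.96, 11.6 and 14.6 CPM. Scar spots held 15.8, 12.7, 12.0 and 9.40 CPM, so every scar value lay below the lowest tendon value, which was that of F592A 2. The tendon value was above the sheath value in 4 of 4 sections, but by 1.11-fold in F592A 2 against 3.06-fold in WT 1. Muscle spots held 7.05, 14.1, 5.22 and 2.86 CPM and skin spots 14.7, 6.19, 4.71 and 4.67 CPM. Below tendon the order was sheath, nerve, adipose, scar, skin and muscle, and each neighbouring pair overlapped across sections.

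Tnmd followed the order of Scx from tendon through scar to sheath spots. Tendon spots held 1951 CPM in WT 1, 1827 CPM in WT 2, 1229 CPM in F592A 1 and 531 CPM in F592A 2, and scar spots 1642, 1165, 801 and 490 CPM. Sheath spots held 631, 680, 465 and 372 CPM. Within every section the order was tendon, scar, sheath, while the spread between sections was wide enough for the classes to overlap. Muscle spots held 328, 439, 157 and 36.2 CPM and skin spots 367, 310, 166 and 114 CPM. Tnmd was counted in every class of every section, with 100 to 1121 UMIs in the skin spots of a section.

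**Figure D1:**
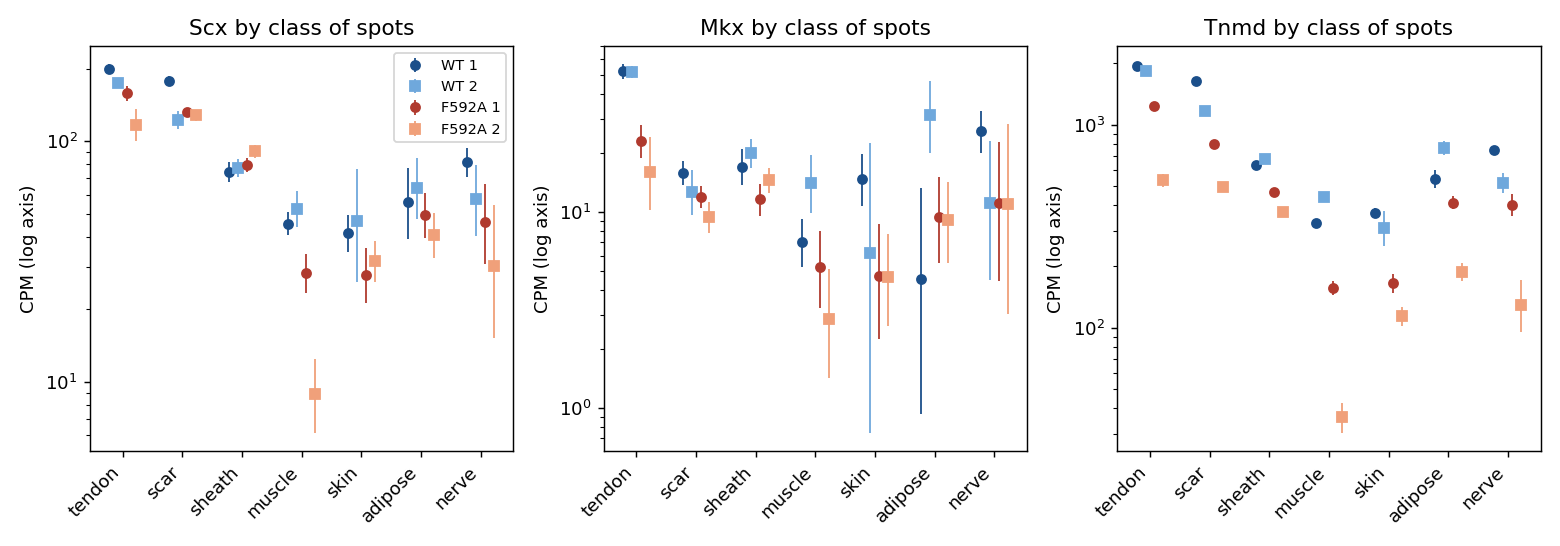
Level of Scx, Mkx and Tnmd (CPM, log axes) in each class of spots, with 1 point per section and bars for the exact 95% Poisson interval, which covers counting error alone. Scx and Tnmd step down from tendon through scar to sheath, whereas Mkx drops from tendon to scar, and the 2 WT sections lie at 52.1 and 51.8 CPM for Mkx in tendon spots.

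The differences between classes were tested on UMI sums per section and class with the section as a block (edgeR's quasi-likelihood test, Benjamini-Hochberg adjustment over all 13971 genes). Mkx passed between tendon and scar: its level was higher in tendon spots by 1.48 ± 0.22 (log2, SE), a 2.80-fold difference with an adjusted p of 0.000618, and higher in 4 of 4 sections. Scx (0.23 ± 0.23, adjusted p 0.727) and Tnmd (0.44 ± 0.26, adjusted p 0.476) did not pass. Thus 1 of 3 members was called higher in tendon than in scar, against 3.17% of all genes tested, with 1.17% called lower. The call on Mkx held without each section in turn, but not when tendon was taken as clustered regions, described below (0.28, adjusted p 0.797).

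All 3 genes were higher in tendon than in sheath spots, where 1.14% of genes were called higher and 1.33% lower. The differences were 1.03 ± 0.24 for Scx (adjusted p 0.0253), 1.20 ± 0.22 for Mkx (0.00559) and 1.27 ± 0.27 for Tnmd (0.0129) by the same edgeR test. These calls rested on several sections: without WT 2 the adjusted p was 0.205 for Scx, 0.105 for Mkx and 0.119 for Tnmd. Without WT 1 or without F592A 1 those of Scx (0.123 and 0.164) and Tnmd (0.0803 and 0.135) were lost too. Against muscle all 3 were higher, by 1.88, 1.97 and 2.27 (adjusted p 4.9e-06, 4.3e-06 and 1.3e-06), where 28.2% of genes were called higher. Against skin they were higher by 2.52, 2.39 and 2.85 (5.4e-07, 1.7e-06 and 1.5e-07), where 31.4% were. For muscle the clustered regions left differences of 1.14, 0.64 and 1.31 that did not pass.

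The maps of the sections show the same arrangement in space. By eye, the sites of high Scx and Tnmd formed bands that ran through tendon and scar spots, while Mkx UMIs lay in patches inside those bands. Neither shape was measured or tested. A Mkx UMI was found in 8.41% to 21.7% of the spots of a section. The richest 10% of spots held 65.9% to 80.5% of the Scx UMIs of a section and 64.2% to 79.04% of the Tnmd UMIs. Depth was concentrated too, with 44.4% to 62.0% of all UMIs in the deepest 10%.

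**Figure D2:**
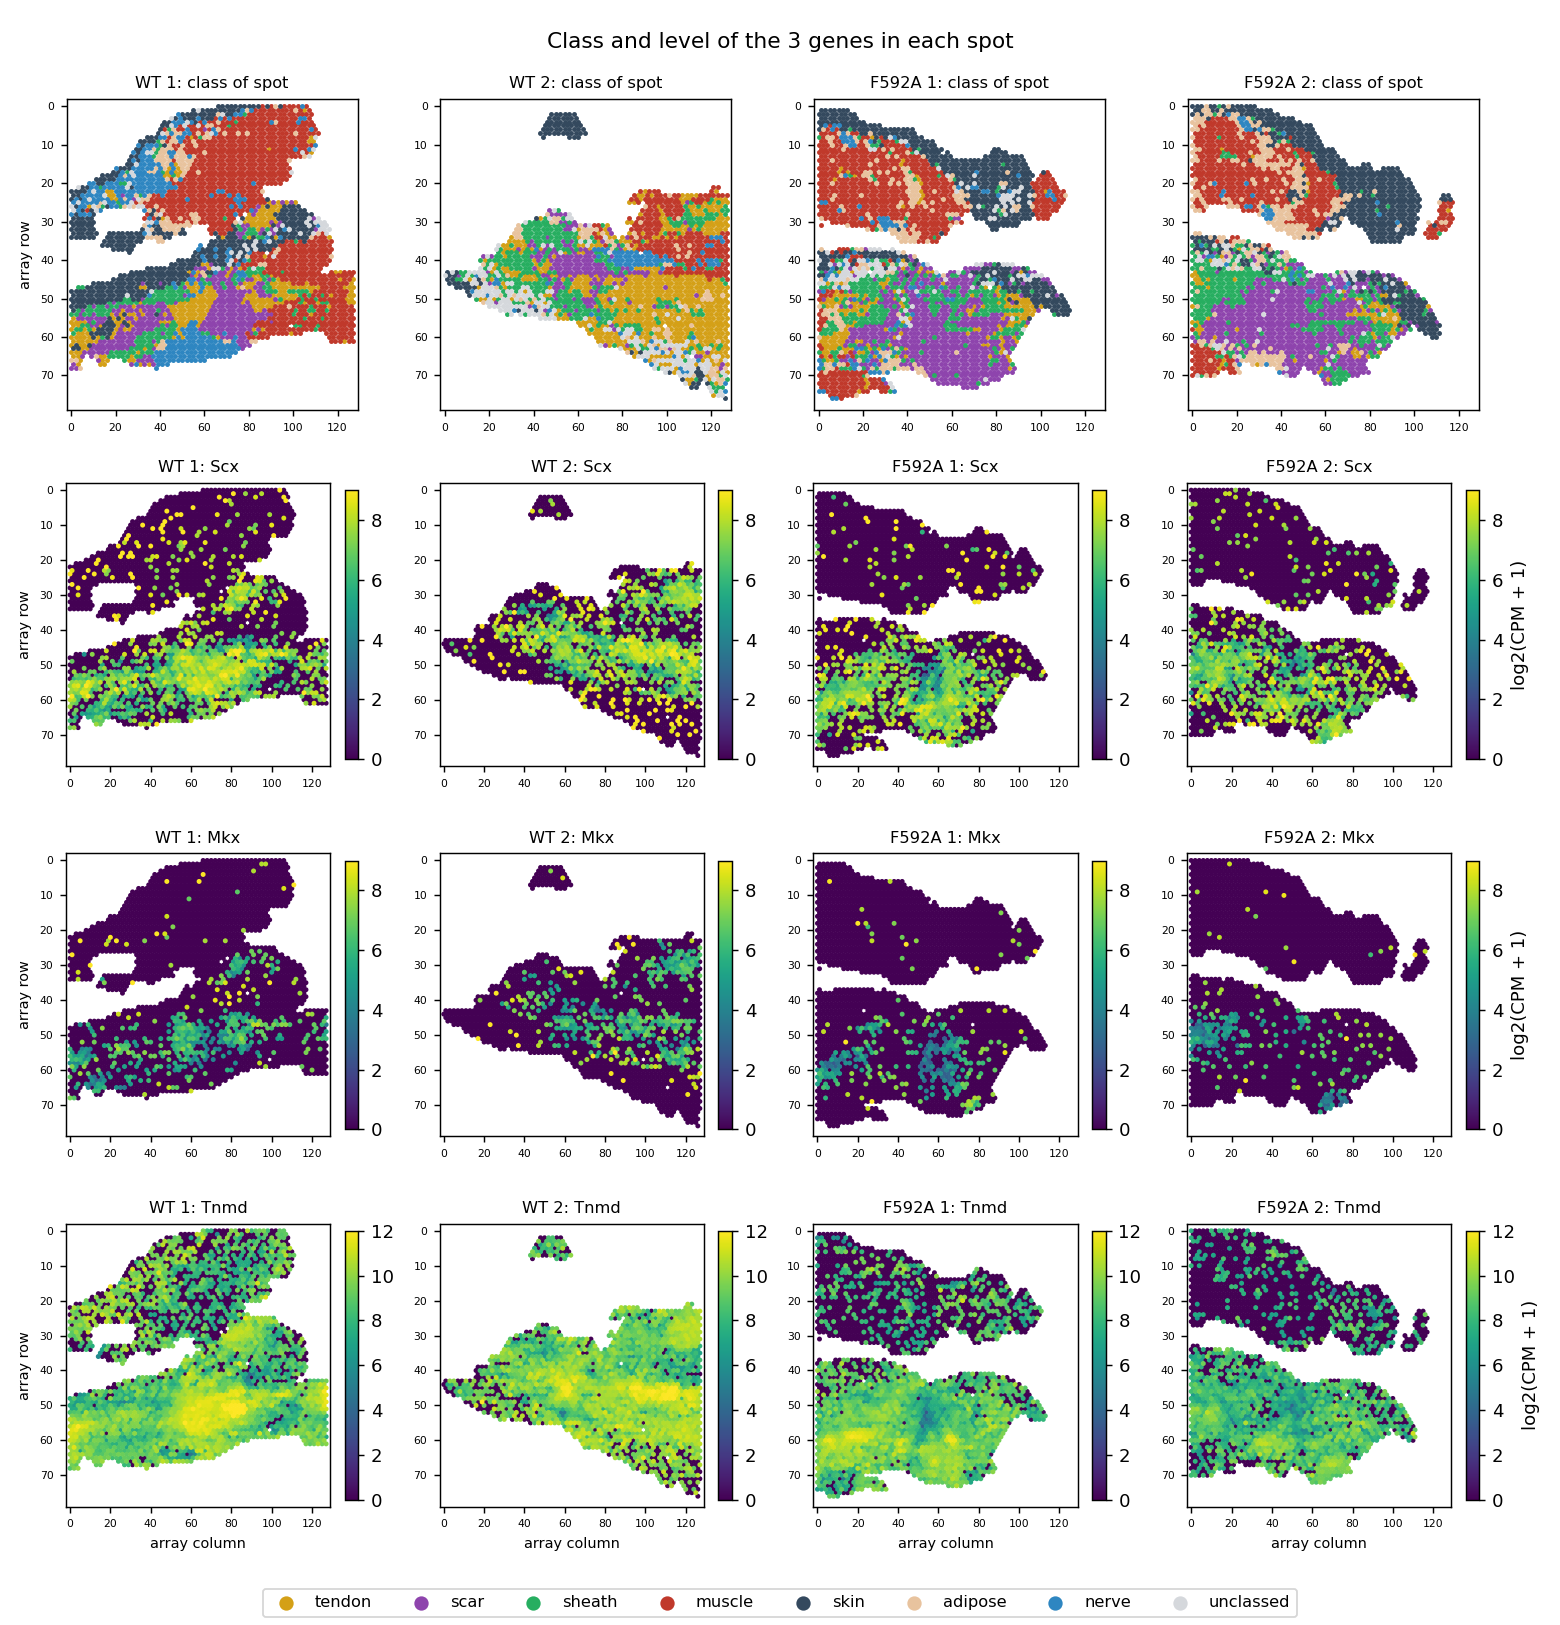
Spots of the 4 sections by array row and column, coloured by class (top) and by the level of Scx, Mkx and Tnmd (log2 of CPM + 1; scale bars beside each map). Scx and Tnmd are found in both tendon and scar spots, Tnmd in more spots than Scx, and Mkx is sparse.

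The share of spots with any UMI depends on depth, so spots were also thinned to 2000 UMIs. Unthinned, 64.3% of the 1321 tendon spots had a Scx UMI (exact Clopper-Pearson 95% interval 61.6 to 66.9), 36.7% had a Mkx UMI (34.1 to 39.4) and 95.5% a Tnmd UMI (94.2 to 96.5). Thinned, the shares were 22.4%, 7.28% and 83.8%, with 58 shallower tendon spots left out. For Scx the thinned share of scar spots was close, at 20.9%, whereas for Mkx it was 2.66% and for Tnmd 62.0%. Skin spots, taken as tissue away from tendon, had thinned shares of 7.51%, 2.09% and 34.3%, with 315 spots left out, and muscle spots 6.08%, 1.12% and 29.5%, with 173 left out. The median spot held 11304 UMIs in tendon, 3648 in skin and 5570 in muscle before thinning. The thinned Mkx shares of scar (2.66%) and sheath (2.62%) lay close to the 2.09% of skin. By these shares the Mkx of scar and sheath spots was not set apart from that of skin. This bears on every Mkx level, ratio and fold change given for those spots. The pooled shares mix class with group, since WT 1, WT 2, F592A 1 and F592A 2 gave 326, 696, 204 and 95 tendon spots but 346, 190, 606 and 641 scar spots. In that order the thinned Mkx share was 8.81%, 8.47%, 3.48% and 2.11% in tendon and 4.07%, 2.81%, 3.15% and 1.40% in scar spots. The F592A tendon shares thus lay near those of scar and skin, and the same caution holds for them. The intervals cover counting error only.

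All 3 genes were higher inside blocks of tendon spots than at scattered tendon spots in the WT sections. In tendon spots with 4 to 6 tendon neighbours Scx stood at 227 CPM in WT 1 and 191 in WT 2, against 130 and 95.6 CPM in tendon spots with 0 or 1 such neighbour. Mkx stood at 60.8 and 56.9 CPM against 30.5 and 17.6, and Tnmd at 2236 and 2004 CPM against 1247 and 1084. In F592A 1, Scx and Tnmd were also higher among neighbours (205 against 143 CPM and 1823 against 883 CPM), while Mkx was not (19.2 against 23.0 CPM). F592A 2 had 14 spots with 4 to 6 tendon neighbours, too few for a level. These are values per section with no test, and the mean tendon marker score was higher in the surrounded spots as well (2.01 against 1.27 in WT 1).

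Sheath spots next to tendon carried more of all 3 genes than sheath spots farther off, in the WT sections and F592A 1. Scx went from 91.7, 107 and 112 CPM at 1 step from a tendon spot to 46.2, 19.2 and 55.5 CPM at 3 to 4 steps in WT 1, WT 2 and F592A 1. In F592A 2 it stayed at 96.3 and 94.0 CPM over these steps and was 62.5 CPM at 5 or more steps. Mkx in sheath was 24.6, 24.8, 15.8 and 16.2 CPM at 1 step and 4.199, 6.67, 7.40 and 14.0 CPM at 3 to 4 steps, the least steep in F592A 2. Tnmd was 787, 895, 679 and 327 CPM at 1 step and 439, 259, 345 and 433 CPM at 3 to 4 steps, so in F592A 2 it did not decline over this range. At 5 or more steps Tnmd was 161 CPM in F592A 2. Scar spots had no shared direction for Scx, at 163, 130, 164 and 95.8 CPM at 1 step and 223, 99.0, 126 and 165 CPM at 3 to 4 steps.

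Across the tendon marker score of a spot, which holds no member, all 3 genes were highest in the top bin of both WT sections, with the steepest last step for Mkx. In WT 1 and WT 2 Mkx was 15.3 and 15.03 CPM at scores of 0.5 to 1, 25.8 and 26.2 at 1 to 1.5 and 55.2 and 56.3 above 1.5. Scx over the same bins was 151 and 99.5, then 162 and 116.3, then 217 and 186 CPM. In the F592A sections Mkx reached 20.2 and 26.1 CPM above 1.5, and Scx 143 and 142 CPM. Below a score of 0 the sections were close for Scx, at 28.4 to 34.9 CPM. At scores of 0 to 0.5 both F592A sections were above both WT sections for Scx (99.8 and 104.7 against 85.1 and 63.9 CPM). From 0.5 to 1 and from 1 to 1.5 the groups overlapped for Scx. Above 1.5 both F592A sections lay below both WT sections for all 3 genes, with Tnmd at 1086 and 647 against 2088 and 1914 CPM. That bin has no upper limit, and the scores inside it were not compared between the groups.

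**Figure D3:**
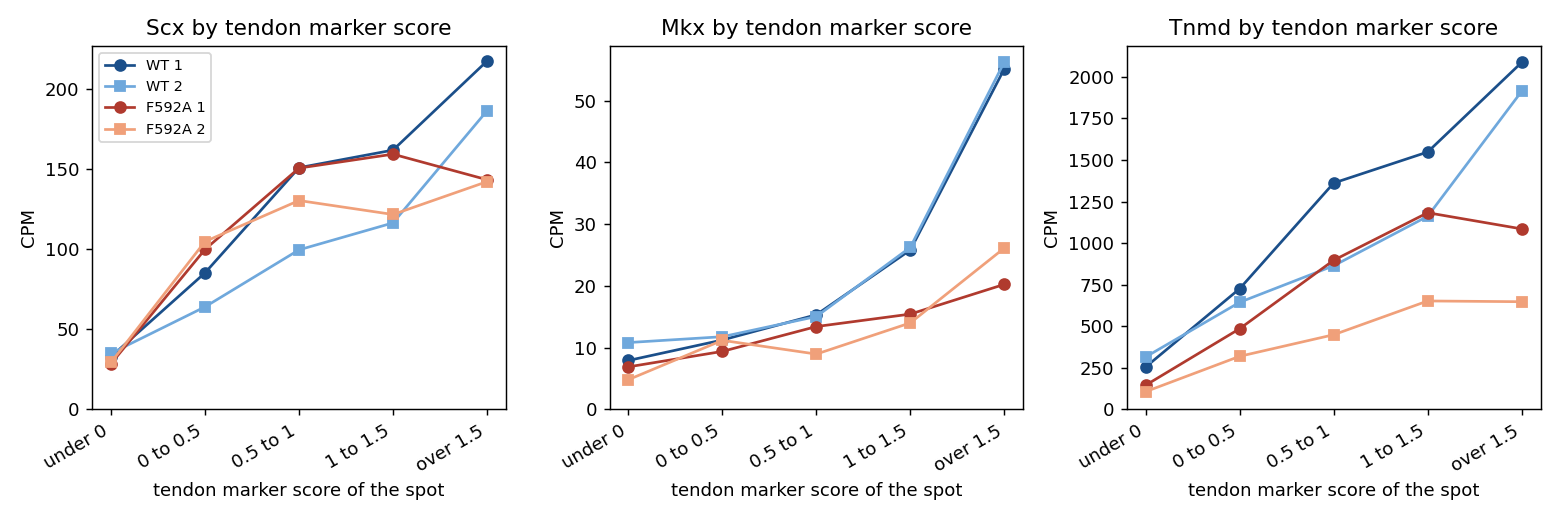
Level (CPM) of the 3 genes in spots binned by tendon marker score, 1 line per section. The WT lines of Mkx lie on each other and reach 55.2 and 56.3 CPM in the top bin, against 20.2 and 26.1 CPM in the F592A sections.

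The proportion of Mkx to Scx differed between tendon and scar spots in every section. Mkx UMIs per 100 Scx UMIs were 26.0, 29.6, 14.6 and 13.8 in the tendon spots of WT 1, WT 2, F592A 1 and F592A 2, and 8.85, 10.3, 9.04 and 7.35 in scar spots. The ratio is not per transcript length, so its size says nothing of the proteins or of relative transcript numbers, and only its change between spots was read. In sheath spots it was 22.9, 25.7, 14.6 and 16.1, near the tendon value of the same section, though from Mkx levels whose thinned share was close to that of skin. The log2 tendon-over-scar ratio of Mkx exceeded that of Scx by 1.56, 1.52, 0.69 and 0.91, a mean of 1.17 ± 0.44 (SD, n = 4). It was positive in 4 of 4 sections, with a two-sided exact sign-flip permutation p of 0.125, the smallest that 4 sections allow, and 0.214 after adjustment over 12 such comparisons. The Tnmd excess over Scx was smaller, with a mean of 0.21 ± 0.12 against scar (same exact p of 0.125).

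**Figure D4:**
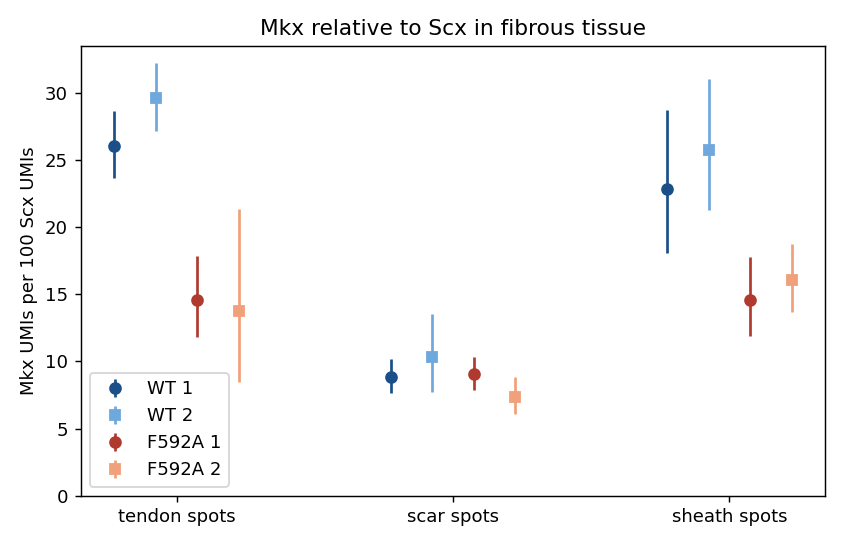
Mkx UMIs per 100 Scx UMIs in tendon, scar and sheath spots, 1 point per section, with exact 95% intervals for the 2 counts. Scar spots lie at 7.35 to 10.3 in all 4 sections, while tendon and sheath spots are higher in the WT than in the F592A sections.

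Tnmd per Scx was highest in tendon spots among tendon, scar, sheath and muscle spots of every section, but not among all classes. In WT 1 there were 9.75 Tnmd UMIs per Scx UMI in tendon, 9.19 in scar, 8.46 in sheath and 7.21 in muscle spots. In F592A 1 the values were 7.77, 6.04, 5.85 and 5.54, with 95% intervals of 7.20 to 8.40 in tendon and 5.80 to 6.30 in scar spots that did not overlap. In F592A 2 they were 4.54, 3.83, 4.10 and 4.09. The tendon and scar intervals overlapped in WT 1 (9.32 to 10.2 and 8.81 to 9.60), WT 2 and F592A 2. Adipose-led spots were above tendon in WT 2 (12.0 against 10.4), F592A 1 (8.38 against 7.77) and F592A 2 (4.61 against 4.54). In WT 1 they were not (9.65 against 9.75). Nerve-led spots were above tendon in F592A 1 (8.72). The ratio also differed between sections: whole sections gave 9.22, 9.95, 6.36 and 3.98 in WT 1, WT 2, F592A 1 and F592A 2. The 2 F592A sections lay below both WT sections in tendon (7.77 and 4.54 against 9.75 and 10.4), scar, sheath and muscle spots.

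The comparison of F592A with WT asks how blocking TrkA bears on these tendon genes. In whole sections Scx stood at 130 and 125 CPM in WT 1 and WT 2 and at 103 and 87.3 CPM in F592A 1 and F592A 2. Mkx stood at 23.7 and 32.6 against 11.9 and 10.4 CPM. Tnmd stood at 1194 and 1246 against 654 and 348 CPM. All 3 genes were lower in both F592A sections than in either WT section, as were 20.3% of the genes tested. None passed the test over all genes, of which 0.0795% were called in either direction: the log2 fold changes were -0.44 ± 0.13 for Scx (adjusted p 0.302), -1.36 ± 0.20 for Mkx (0.152) and -1.30 ± 0.32 for Tnmd (0.251) by edgeR. The Mkx call depended on the tool and the sections, with an adjusted p of 3.6e-06 by DESeq2, which called 2.54% of its genes. By edgeR with 1 section left out at a time the Mkx change ran from -1.61 to -1.07, and whether it passed turned on the section left out.

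Sections also differed in how much tendon they held. Tendon spots carried 37.8% of the Scx UMIs of WT 1 and 63.2% of WT 2, against 16.4% of F592A 1 and 5.16% of F592A 2. For Mkx the shares were 54.0%, 71.7%, 20.7% and 5.99%. With 2 sections per group the share of tendon spots (mean 22.6% in WT and 5.33% in F592A) gave an exact permutation p of 0.33, the smallest possible. When each section's own class levels were weighted by the class shares of WT 1, Mkx came to 23.7, 23.2, 12.8 and 10.3 CPM and Tnmd to 1194, 1032, 674 and 352 CPM. Scx came to 130, 107, 99.6 and 85.5 CPM. At the class shares of F592A 2 the gaps were smaller: Mkx came to 16.0 and 17.3 CPM in WT against 10.7 and 10.4 CPM in F592A, Scx to 109 and 90.9 against 88.9 and 87.3 CPM, and Tnmd to 977 and 840 against 550 and 348 CPM. In any of these sums, fewer cells of a type in a spot and less RNA per cell cannot be told apart.

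Within tendon spots Mkx showed the widest gap between the groups. Both WT sections lay near 52 CPM and the F592A sections at 23.0 and 16.1 CPM, a log2 fold change of -1.37 ± 0.19 (adjusted p 0.0789 by edgeR, unadjusted 0.000118). It ranked 20th of 13549 genes by p, and no gene was called (0% in either direction), with 1235 genes at an unadjusted p under 0.05. Scx differed by -0.47 ± 0.18 (adjusted p 0.502) and Tnmd by -1.13 ± 0.35 (0.399). Without F592A 1 these were -0.77 and -1.92, and without F592A 2 they were -0.26 and -0.63. All 3 members were lower in both F592A sections, as were 18.2% of genes. DESeq2 called Mkx (-1.40, adjusted p 0.000631) among 104 genes, 1.32% of those it tested. With 1 section left out at a time Mkx ran from -1.78 to -1.19, and whether it passed turned on the section left out. edgeR without the filter on low counts passed both Mkx (1.1e-09) and Tnmd (-1.15, 1.6e-07), among 540 of 19810 genes called. Over all alternatives the adjusted p of Mkx ran from 1.1e-09 to 0.801.

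The direction for Mkx and Scx held for tendon spots found by markers but not for regions found by clustering. When regions were instead found by clustering the spots without the 3 genes, the tendon-led regions held 438 and 1070 spots in the WT sections, 38 in F592A 1 and 5 in F592A 2, which was left out of that fit. There Mkx was 23.9, 37.1 and 33.2 CPM in WT 1, WT 2 and F592A 1, a log2 fold change of 0.26 (adjusted p 0.801), and Scx 180, 121 and 162 CPM (0.24, adjusted p 0.785). Tnmd kept its direction, at 1844, 1326 and 1101 CPM. The mean tendon score of these regions was 0.75 and 0.88 in WT and 0.98 in F592A 1, so their tendon content was not matched. In WT 1 a scar-led region had a mean tendon score of 1.62 and held 42.0 CPM of Mkx. Taking the 10% of spots with the highest tendon score in each section gave Mkx at 51.2 and 64.5 CPM in WT and 17.8 and 16.5 CPM in F592A, but the mean tendon score of these spots was 1.90 and 2.58 in WT and 1.48 and 1.21 in F592A, so they were not matched for tendon content. Of the tendon spots, 25.2% had a tendon score within 0.25 of another class's score. Summed muscle markers in tendon spots were also higher in F592A (12836 and 11188 CPM) than in WT (6249 and 7188 CPM), with all 10 detected in each section, and their part in the Mkx difference was not tested. Macrophage markers, all 7 detected, ran from 2352 to 2709 CPM in tendon spots, and the groups overlapped. Endothelial markers, all 5 detected, were at 238 to 271 CPM in WT and 288 CPM in both F592A sections, and their part was not tested either. Summed cartilage markers were lower in F592A tendon spots (319 and 367 CPM, with 1 of 8 at 0 in F592A 2) than in WT (526 and 485 CPM), as were nerve markers (325 and 340 CPM, with 1 of 7 at 0 in each, against 524 and 375 CPM), while sheath markers were higher (1466 and 1666 against 1186 and 1297 CPM). The part of these was not tested.

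In scar spots the gap was in Tnmd. It stood at 1642 and 1165 CPM in WT against 801 and 490 CPM in F592A (-1.12 ± 0.28, adjusted p 0.283 by edgeR, 0.00148 by DESeq2, which called 1.11%). Mkx differed by -0.42 ± 0.20 (0.502) and Scx by -0.22 ± 0.18 (0.694). Tnmd and Mkx were lower in both F592A sections, as were 21.7% of genes, while for Scx the groups overlapped, and without WT 1 its fold change was 0.07. edgeR called 0.0562% of genes in scar spots in either direction, and none of the 3.

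Sheath spots were the class in which Scx did not follow the other members. It was 74.5 and 77.6 CPM in WT and 79.6 and 90.6 CPM in F592A, a log2 fold change of 0.21 ± 0.11 (adjusted p 0.466). Mkx (-0.46 ± 0.18, 0.366) and Tnmd (-0.60 ± 0.16, 0.231) were lower in both F592A sections, as were 27.8% of genes, and edgeR called 0.124% in either direction. DESeq2 put Tnmd at an adjusted p of 0.0478, among 1.26% called. Summed tendon markers in sheath spots were 3538 and 3672 CPM in WT and 4315 and 5438 CPM in F592A, all higher with Scx, and their part was not tested.

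Muscle and skin spots held low levels of all 3 genes, and those were lower in F592A as well. In muscle the fold changes were -1.19 ± 0.40 for Scx (adjusted p 0.118), -1.08 ± 0.46 for Mkx (0.199) and -1.80 ± 0.53 for Tnmd (0.0911), none called, while 5.22% of genes were. All 3 were lower in both F592A sections, but so were 44.3% of the genes tested in muscle spots. Without F592A 1 the Tnmd change was -3.24 and without F592A 2 it was -1.07, so its size rested largely on F592A 2 at 36.2 CPM. With 1 section left out at a time, Scx ran from -2.29 to -0.56 and Mkx from -1.61 to -0.61. Whether any of the 3 genes passed turned on the section left out, and such fits leave 1 section in a group. The summed tendon markers of muscle spots ran alongside, at 1980 and 2391 CPM in WT and 978 and 524 CPM in F592A. So did those of scar (3371 and 3088 against 1575 and 884 CPM), sheath (597 and 793 against 478 and 405 CPM) and macrophages (1174 and 891 against 589 and 487 CPM). The part of other tissue in these spots was not tested. In skin the changes were -0.52 ± 0.24, -1.47 ± 0.44 and -1.29 ± 0.30 (adjusted p 0.945, 0.745 and 0.593), with 0% of genes called by edgeR (695 at an unadjusted p under 0.05, and 5 called by DESeq2) and 15.1% lower in both F592A sections, as all 3 members were. The Mkx level in the skin of WT 2 came from 2 UMIs. With 1 section left out at a time, the skin changes ran from -0.67 to -0.45 for Scx, -1.62 to -0.43 for Mkx and -1.61 to -1.02 for Tnmd. Whether Mkx or Tnmd passed turned on the section left out.

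**Figure D5:**
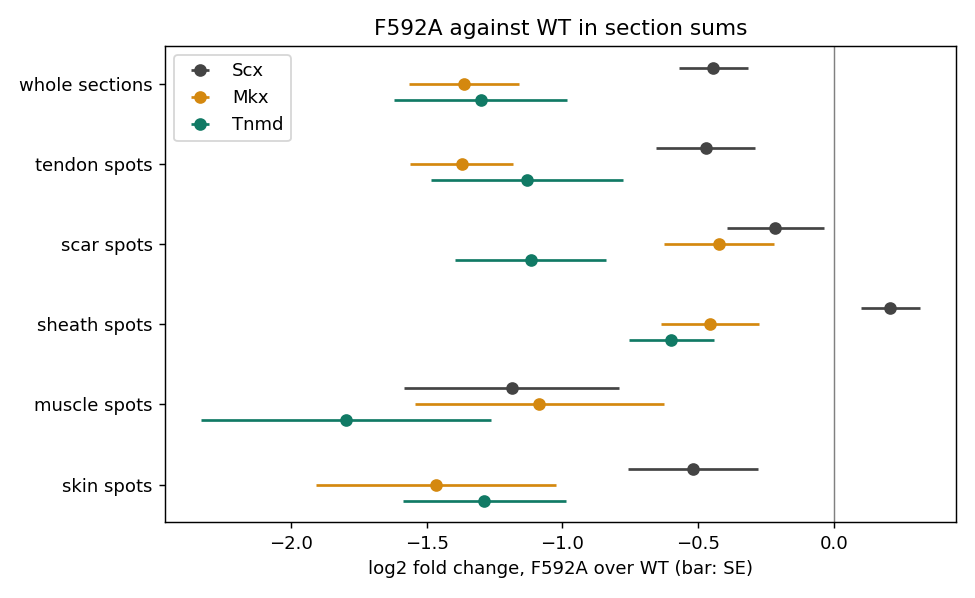
Log2 fold change of F592A over WT (points) with its SE (bars) for the 3 genes in whole sections and in 5 classes of spots. Mkx lies at -1.37 in tendon spots and at -0.42 and -0.46 in scar and sheath spots, and the point of Scx in sheath spots, at 0.21, is the 1 point above 0.

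Whether the group effect differed between classes was tested on its own. Between tendon and scar spots the Mkx effect differed by -0.98 ± 0.21, with an unadjusted p of 0.000637 and an adjusted p of 0.0765 by edgeR, short of the threshold that 0.463% of genes passed. For Scx the difference was -0.28 ± 0.17 (0.678) and for Tnmd -0.11 ± 0.19 (0.921). Between tendon and sheath spots the differences were -0.66 ± 0.19 for Scx, -0.87 ± 0.25 for Mkx and -0.64 ± 0.23 for Tnmd (adjusted p 0.204, 0.204 and 0.304), where 0.426% of genes were called. None of the 3 genes was thus shown to respond more in tendon than in scar or sheath spots.

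Genes of the same pathways were listed by function. Of the 10 partners and inhibitors of basic helix-loop-helix factors, which pair with scleraxis or keep its partners from DNA, 7 had a positive and 3 a negative fold change in tendon spots, and none passed. Their median fold change was 0.16, against -0.0039 over all genes. Id2, an inhibitor of such pairing, was at 0.33 ± 0.14 (adjusted p 0.543) and Id1 at -0.38 ± 0.20 (0.616). The 20 matrix genes linked to scleraxis and Mohawk leaned lower in tendon spots, 15 of 20 with a median of -0.26, against 50.5% of all genes below 0, again with none called. Col11a1, a fibril-nucleating collagen, was the nearest at -0.99 ± 0.17 (adjusted p 0.14). Its group effect did differ between tendon and scar spots, by -0.97 ± 0.15 (adjusted p 0.0183, edgeR). All 20 matrix genes were called higher in tendon than in muscle and than in skin, at medians of 1.68 and 1.95, where 28.2% and 31.4% of all genes were.

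Of 14 tested genes among the TGF-beta and GDF signals that act upstream of scleraxis, 9 were lower in F592A tendon spots and none passed (median -0.08). Mstn, which encodes the muscle growth inhibitor myostatin, was at -0.90 ± 0.17 (adjusted p 0.177). It was also 6.73-fold higher in tendon than in scar spots (2.75 ± 0.32, adjusted p 8.8e-05), with a mean of 94.5 CPM in muscle, 44.8 in tendon and 7.40 in scar spots. Among the 12 other tendon-linked factors none passed between the groups in tendon spots. Egr1, an early growth response factor that induces collagen genes, was at 1.00 ± 0.15 (adjusted p 0.0841), and Six2 at -1.13 ± 0.44 (0.502). Egr1 was the 1 of those 12 called higher in tendon than in scar spots (0.64 ± 0.18, adjusted p 0.0477), where 3.17% of all genes were, and Eya2 the 1 called higher than in sheath spots (1.55 ± 0.25, adjusted p 0.00163), where 1.14% were. The TALE relatives of Mkx did not share its place: 12 of 15 had a negative fold change between tendon and scar spots, and Irx1 was called lower (-1.60 ± 0.34, adjusted p 0.00837), as were 1.17% of all genes. By mean level, 13 of the 16 TALE genes were highest in skin spots. Of the BRICHOS-domain relatives of tenomodulin, 3 of 7 were tested in tendon spots, none passed, and Itm2c was at -0.58 ± 0.16 (adjusted p 0.361).

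The genes whose levels ran closest to each member over the 28 section and class sums were ranked among 9873 genes by Pearson correlation of log2(CPM + 1). The sums share libraries, depth and tissue mixtures, so the values are descriptions. For Scx they were Pkd2 (0.96), Clec11a (0.96), Thbs1 (0.95), Edil3 (0.94) and Angptl2 (0.94), none of them a class marker. Tnmd was the 10th gene for Scx (0.93) and Mkx the 829th (0.75). For Mkx they were Fmod (0.90), Abi3bp (0.87), Kera (0.87), Cpxm2 (0.86) and Cilp2 (0.85), of which Fmod, Kera and Cilp2 are tendon markers of the class rule. For Tnmd they were Edil3 (0.97), Abi3bp (0.96), Fzd8 (0.95), Fibin (0.95) and Clec11a (0.94), with Scx as the 7th.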

How the data were processed

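Each matrix gives unnormalized UMI counts, per gene, for the spots under tissue. Per the file headers these deposited counts were written by Space Ranger 1.3.0, and the submitters' processing notes name the build mm10 and Seurat 3. The authors' gene symbols, identifiers and array positions were used as deposited. Barcodes shared between sections are array positions, not shared cells.

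Spots with at least 500 UMIs were kept, 10649 of 10662. Each marker list was scored in a spot as the standardised mean of ln(1 + counts per 10000), and the highest score of at least 0.5 gave 1 of 7 classes. A cartilage list was scored but made no class, since its spots were Acan-rich fibrous tissue. UMIs were summed per section and class (20 spots or more) and tested with edgeR 4.0.16 (quasi-likelihood, TMM, filterByExpr, Benjamini-Hochberg over all genes tested, threshold 0.05) on R 4.3.3. CPM are counts scaled to 1000000 UMIs of the summed spots. Group fits used the sections of both groups, and contrasts of classes had the section as a block. Values with no fit were compared by exact permutation. The test of tendon against sheath effects was added after the data were seen. The alternatives tried were RLE scaling, DESeq2 1.42.0, no filter, each section left out, a replicate block, other class rules and regions clustered with scanpy 1.11.5 (2000 variable genes, 30 components, 20 neighbours, Leiden resolution 0.6, seed 0).

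Members, lists and tests were chosen with earlier results of these data known. Text names the 3 genes throughout, the 5 genes most like each, and up to 4 list genes with the smallest p in whole sections or tendon spots. Mstn, Egr1, Col11a1, Eya2 and Irx1 in other comparisons were named after their values were seen. On simulated counts with 200 changed genes the tendon fit (13485 genes) recovered 69% of 2-fold and 100% of 4-fold changes with 10 false calls, and the test of tendon against scar effects (14064 genes) 32% and 90% with 6. The simulation gave all genes the same dispersion and changed only genes with high counts. Apart from those changes, its sections differed in depth alone. The recovery thus checks the code and does not give the power in these data.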

Additional observations from a re-analysis of the deposited data

Results flagged for a closer look

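Scx differed between groups in opposite directions in 2 neighbouring classes. In tendon spots both F592A sections were below both WT sections (158 and 116.8 against 200 and 175 CPM), and in sheath spots both were above (79.6 and 90.6 against 74.5 and 77.6 CPM). The difference of the 2 group effects was -0.66 ± 0.19 on the log2 scale, with an adjusted p of 0.204 by edgeR's quasi-likelihood test, so it did not pass over all genes. Bop1, whose span holds Scx, was also higher in F592A sheath spots (38.9 and 40.2 against 37.0 and 33.0 CPM), and its part was not tested. This test was chosen after the values had been seen.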

How the results depend on the processing

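Of 357 alternative values of 36 results, 311 kept their direction and side of the threshold, 32 passed where the reported value had not, 11 no longer passed and 3 reversed. Without the filter on low counts, log2 fold changes that then passed were -1.36 (Mkx) and -1.30 (Tnmd) in whole sections, -1.40 and -1.15 in tendon, -1.11 (Tnmd) in scar, -0.58 (Tnmd) in sheath, -1.19, -1.08 and -1.79 (Scx, Mkx, Tnmd) in muscle and -1.27 (Tnmd) in skin spots. In that order these fits called 546 of 22736, 540 of 19810, 854 of 20543, 1014 of 20048, 1888 of 19068 and 179 of 18743 genes. DESeq2 passed Mkx in whole sections (-1.36) and tendon (-1.40) and Tnmd in scar (-1.11) and sheath (-0.59). A lead of 0.5 over the next score passed Scx (-1.33) and Tnmd (-1.90) in muscle, among 600 of 10937 genes called. Clustered regions reversed Scx (0.24) and Mkx (0.26) in tendon spots and ended the calls of Mkx against scar (0.28) and of Scx, Mkx and Tnmd against muscle (1.14, 0.64 and 1.31). They gave no sheath class. The causes were not tested.

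Leaving out 1 section at a time gave, for Mkx, -1.61 to -1.07 in whole sections, -1.78 to -1.19 in tendon, -1.61 to -0.61 in muscle and -1.62 to -0.43 in skin spots. For Scx it gave -0.44 to 0.072 in scar (the latter, without WT 1, a reversal), -0.77 to -0.26 in tendon and -2.29 to -0.56 in muscle, and for Tnmd -1.92 to -0.63 in tendon, -3.24 to -1.07 in muscle and -1.61 to -1.02 in skin. Tendon against sheath ran from 0.89 to 1.28 (Scx), 1.02 to 1.45 (Mkx) and 1.14 to 1.57 (Tnmd).

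The labels number replicates 1 and 2 in each group, but same-numbered sections did not deviate together (r = -0.13 over 16347 genes). With 2 sections per group the 2 deviations of a group mirror each other, so r cannot show whether the numbers pair sections. The reported fits did not pair them. With a replicate block Mkx (-1.40) and Tnmd (-1.26) passed in tendon spots, where 198 genes were called against 0 without it. With the numbers crossed, 189 genes were called in whole sections and 178 in tendon spots.

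Over the alternatives, genes called numbered 0 to 546 in whole sections (13 reported), 0 to 540 in tendon (0), 3 to 854 in scar (8), 16 to 1014 in sheath (17), 82 to 1888 in muscle (633) and 0 to 1119 in skin spots (0). Tendon against scar gave 170 to 893 (606), sheath 56 to 678 (345) and muscle 800 to 8241 (8042), and the tests of differing group effects 0 to 76 (65) and 37 to 82 (58). Mkx rests on 23 UMIs in the tendon spots of F592A 2 and 2 in the skin of WT 2, so depth limits it there.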

Other observations

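Tnmd UMIs were found together with those of the transcription factors inside tendon spots. In WT 1, the 252 tendon spots with a Scx UMI held 2012 CPM of Tnmd and the 74 without held 951 CPM, and in WT 2 the values were 1920 and 1083 CPM. In F592A 2 they were 561 and 456 CPM. For Mkx, the 168 WT 1 tendon spots with a UMI held 2139 CPM of Tnmd and the 158 without held 1184 CPM, while in F592A 1 the values were closer, at 1292 and 1128 CPM. A UMI is seen more often in deep spots, and these values have no test.

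By clustering, some regions outside the tendon-led ones held as much Mkx as those or more. Regions are named by their highest mean score over the spots of all sections, which need not describe 1 section. In WT 2 an adipose-led region held 49.5 CPM, a scar-led one 47.5 and a muscle-led one 41.2, against 37.1 in its tendon-led regions. The mean tendon scores of these WT 2 spots were 1.03, 0.071 and 0.74, against 0.88 in the tendon-led regions. The mean scar score of the scar-led one was -0.071 there, over 35 spots. In WT 1 a scar-led region with a mean tendon score of 1.62 held 42.0 CPM against 23.9. The highest level was in another, small region led by scar markers. It held 72.6 CPM of Mkx in its 31 spots of F592A 1, above the tendon spots of that section at 23.0 CPM. The Mkx UMIs behind this level were not listed. Other scar-led regions held 11.5 and 16.0 CPM there. Its mean tendon score was -0.019 and its mean scar score 1.39. Clusters and marker classes are different partitions, and the marker classes of its spots were not counted. The region was too small in the other sections for a comparison.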
